A study of Mus musculus with 6 samples.

Results

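Gene expression in neurospheres of mice that carry a Wip1 transgene was compared with that in wild-type (wt) neurospheres. All 6 arrays of the series enter the comparison (6 of 6), 3 of Wip1Tg spheres and 3 of wt spheres. Neurospheres are free-floating colonies grown in culture from dividing cells of the brain. Per the labels, the source was the subventricular zone, where neurons are still born in adult mice, at an age of 18 months. The cells were grown in medium with EGF and FGF, and were taken at 14 days in vitro with no treatment. The Wip1Tg group held 2 arrays of primary spheres and 1 array of secondary spheres, and the wt group held 1 array of primary spheres and 2 of secondary spheres. The transgene's promoter and construct, the number of founder lines, and whether animals were pooled are not stated in the material used here. The labels do not say whether arrays of 1 group stem from different animals or cultures, and the p-values therefore reflect the spread between these arrays alone, which may be technical.

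Wip1, the product of Ppm1d, is a nuclear phosphatase of the PP2C family. It is itself a transcriptional target of p53, and it removes phosphate groups from p53, from the p38 MAP kinase and from kinases and histone marks of the DNA damage response, which turns these signals off. The subventricular zone holds neural stem cells with astrocyte features, dividing progenitors and neuroblasts, and neurospheres grown from it contain progenitors together with cells that have begun to differentiate into astrocytes, oligodendrocytes or neurons.

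Between 17623 and 18699 of 45281 probes were above background on an array, and the median raw intensity was 150.88 to 168.44. Probes above background on at least 3 arrays gave 12755 features, 10167 of them named genes and 2588 probes without a name, and each gene is represented by its brightest probe. Values below are normalised log2 intensities, and differences are Wip1Tg minus wt from a limma model with passage (primary or secondary) as an additive term, which leaves 3 residual degrees of freedom. Every difference within primary spheres rests on the lone wt primary array, and every difference within secondary spheres on the lone Wip1Tg secondary array. When either array is left out, its passage holds only 1 genotype. The fit then gives the difference within the other passage alone, so these values repeat the within-passage ones and are not a separate check. The labels call the animals gender matched. The brightest probe of Xist, the transcript of the inactive X chromosome, read 4.54 on Wip1Tg primary 1, 9.23 on Wip1Tg primary 2 and 4.61 on wt primary 1, and 8.99, 9.68 and 9.38 on Wip1Tg secondary 1, wt secondary 1 and wt secondary 2. Kdm5d, a gene of the Y chromosome, was above background only on Wip1Tg primary 1 (6.32) and wt primary 1 (6.82). The primary arrays were therefore not alike in sex-linked signal, against that label, and without Wip1Tg primary 2 the arrays of each passage were alike in Xist. Of the cell types that the dissected tissue could bring in, 13 of 18 probed microglia and immune genes, 9 of 15 endothelial genes, 7 of 14 mural and fibroblast genes and 6 of 9 choroid plexus genes were above background on no array, whereas all 23 astrocyte genes were above background on at least 1 array. Of 22 neural stem and progenitor genes, 4 (Pax6, Msi1, Thbs4 and Gli1) were above background on no array. The same held for 5 of 24 genes of neuroblasts and neurons.

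Ppm1d was higher on the Wip1Tg arrays of both passages by less than the test could separate from the spread. It read 9.53 and 9.71 on the Wip1Tg primary arrays, against 9.29 on the wt primary array, and 10.24 on the Wip1Tg secondary array, against 10.13 and 9.98 on the wt secondary arrays. Each Wip1Tg array lay above the wt arrays of its passage. The difference was 0.26 ± 0.125 (log2, SE), or 1.2-fold, with a 95% interval of -0.04 to 0.56 and a limma adjusted p of 0.539. This value comes from 1 of 4 Ppm1d probes, since the other 3 were above background on no array, and whether the transgene's transcript contains this probe's target is not given. Of the 17 measured PP2C phosphatases, 8 were higher (against 51.7% of all features). None reached an unadjusted p under 0.05 in either direction (against 10.1% of all features).

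No feature passed an adjusted p of 0.05 for genotype in limma (0 of 12755, 0%). At an unadjusted p under 0.05, 629 features (4.93%) were higher and 657 (5.15%) were lower in Wip1Tg, together 1286 (10.1%). With log2 values scaled to each array's median without background correction, 48 were higher and 1333 were lower, and the median of all features moved to -0.07. Wip1Tg arrays lay above all wt arrays of their passage in both passages for 2069 features (16.2%) and below them for 1799 (14.1%). Within primary spheres 973 features (7.63%) and within secondary spheres 1762 (13.8%) had an unadjusted p under 0.05, again with 0 (0%) past the adjusted threshold. Large differences were few: at an unadjusted p under 0.05, 143 features (1.12%) were at least 1.5-fold higher and 227 (1.78%) at least 1.5-fold lower, and 7 (0.0549%) were at least 2-fold higher and 40 (0.314%) at least 2-fold lower. The SD of the genotype difference over features was 0.262. For single pairs of arrays the SD was 0.317 and 0.405 for the Wip1Tg primary arrays minus the wt primary array, and 0.342 and 0.455 for the Wip1Tg secondary array minus the wt secondary arrays. It was 0.319 between the Wip1Tg primary arrays and 0.311 between the wt secondary arrays, so that 1 of the 4 pairs of unlike genotype lay between the pairs of like genotype and 3 were larger. Differences within primary and within secondary spheres had the same sign for 6745 features (52.9%). Across features they correlated at a Pearson coefficient of 0.122 and a Spearman coefficient of 0.104, from disjoint sets of arrays, and features are not independent replicates.

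**Figure D1:**
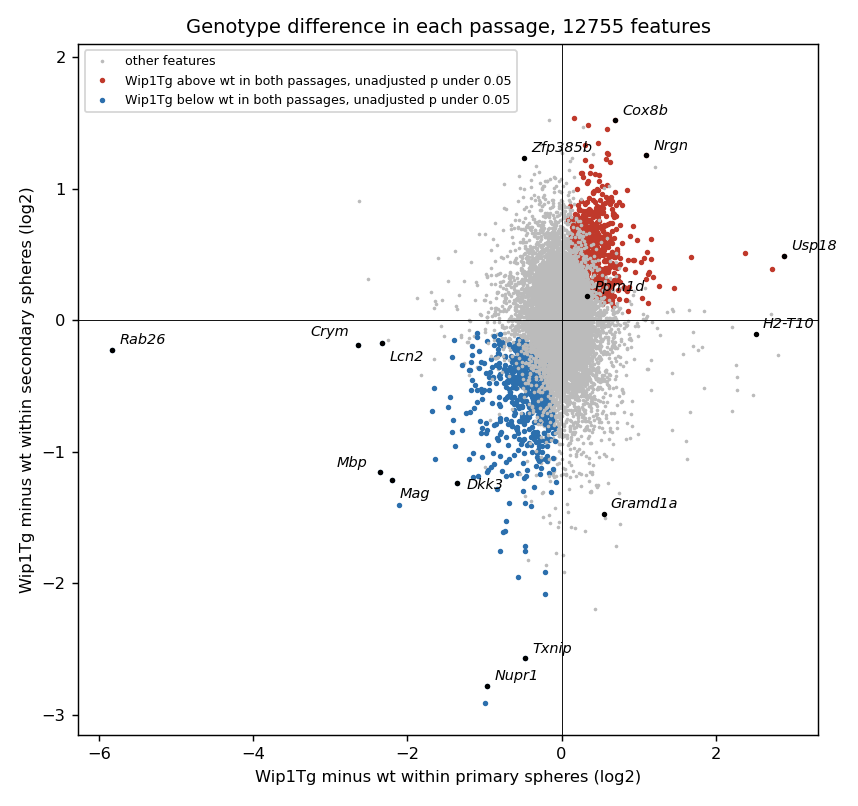
Wip1Tg minus wt within primary spheres (horizontal, log2) against the same within secondary spheres (vertical, log2) for 12755 features. Red and blue points are the 624 and 631 features with an unadjusted p under 0.05 whose Wip1Tg arrays lay above or below all wt arrays in both passages, and black points are the genes written beside them. Dkk3, Mag and Mbp lie low in both passages, whereas Rab26, Crym and Lcn2 lie far to the left with secondary differences near 0.

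Dkk3, a secreted member of the Dickkopf proteins that is studied as a modulator of Wnt signalling, had the smallest p of all features. It read 9.02 and 9.09 on the Wip1Tg primary arrays, against 10.41 on the wt primary array, and 5.97 on the Wip1Tg secondary array, against 7.14 and 7.29 on the wt secondary arrays. All Wip1Tg arrays lay below all wt arrays of their passage by over 1 log2 unit. The difference was -1.30 ± 0.117 (log2, SE), or 2.46-fold lower, with an unadjusted p of 1.70e-05 and a limma adjusted p of 0.217. The difference was -0.84 with the authors' quantile-normalised values and -0.95 with median scaling. A second Dkk3 probe gave -1.33, and it was not above background on the Wip1Tg secondary array. The call depends on how limma pools the variances: with a trended and robust prior, Dkk3 alone passed, at an adjusted p of 0.0318. Since the study that made these arrays was concerned with Dkk3, its place here is not independent evidence. The difference was -1.35 in primary and -1.24 in secondary spheres, and ran from -1.35 to -1.22 over both when each array was left out, although the level was lower in secondary than in primary spheres of both genotypes.

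Of 17 genes with a probe that encode Wnt antagonists or their receptors, 5 passed the filter on low signal. Apcdd1, a membrane-bound inhibitor of Wnt, differed by -0.42 ± 0.171 (unadjusted p 0.0452), while Kremen1, a receptor of Dickkopf proteins, differed by 0.29 and Sfrp2 and Sfrp1, decoys for Wnt ligands, by 0.15 and 0.10. Axin2, a feedback target of β-catenin, read 8.22 and 7.89 in Wip1Tg primary spheres, against 8.21 in wt, and 8.22 in Wip1Tg secondary spheres, against 8.08 and 8.06 in wt. Its arrays overlapped in primary spheres and its fitted difference was near 0 (95% interval -0.35 to 0.35). Of 9 measured β-catenin targets and TCF factors, 4 were higher (against 51.7% of all features), 2 of them at an unadjusted p under 0.05 (against 4.93%). These were Myc (0.43 ± 0.155), a transcription factor of growth, and Lgr5 (0.36 ± 0.15), a receptor for R-spondins. The median of all 9 was near 0.

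Wip1 is known to dampen p53 and p38 signalling. The targets of p53 and the genes of the p38 pathway itself showed small differences, and phosphorylation of p38 was not measured. Of 27 measured p53 targets, 8 were higher and 19 lower (against 51.7% and 48.3% of all features), with a median of -0.08 against 0.01 over all features. The median was -0.22 without wt primary 1, as within secondary spheres, and near 0 without Wip1Tg secondary 1, as within primary spheres. None was higher and 3 were lower at an unadjusted p under 0.05 (against 5.15% of all features). These were Sesn1, which restrains mTORC1 (-0.45 ± 0.125), Phlda3, an inhibitor of Akt (-0.48 ± 0.157), and Gadd45a, a growth arrest and repair factor (-0.46 ± 0.182). Sesn1 read 10.71 and 10.66 on the Wip1Tg primary arrays, against 10.98 on the wt primary array, and 10.18 on the Wip1Tg secondary array, against 10.76 and 10.81 on the wt secondary arrays. The groups of Sesn1 did not overlap in either passage. Cdkn1a, which encodes the CDK inhibitor p21, read 13.42 and 13.49 in Wip1Tg primary spheres, against 13.34 in wt, and 12.30 in Wip1Tg secondary spheres, against 12.97 and 13.50 in wt. It thus lay above wt in primary and below wt in secondary spheres, with a fitted difference of -0.41 ± 0.264 that became 0.12 without Wip1Tg secondary 1. Mdm2, the ubiquitin ligase of p53, differed by -0.14 ± 0.13. Among 14 genes of the p38 pathway, 9 were higher and 5 lower (against 51.7% and 48.3% of all features). Their median was 0.08, or -0.05 with median scaling. Of them Mapkapk3, a kinase that p38 activates, differed by -0.42 ± 0.151 (unadjusted p 0.0297), and Dusp10, a phosphatase of p38 and JNK, by 0.38 ± 0.174 (unadjusted p 0.0685).

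**Figure D2:**
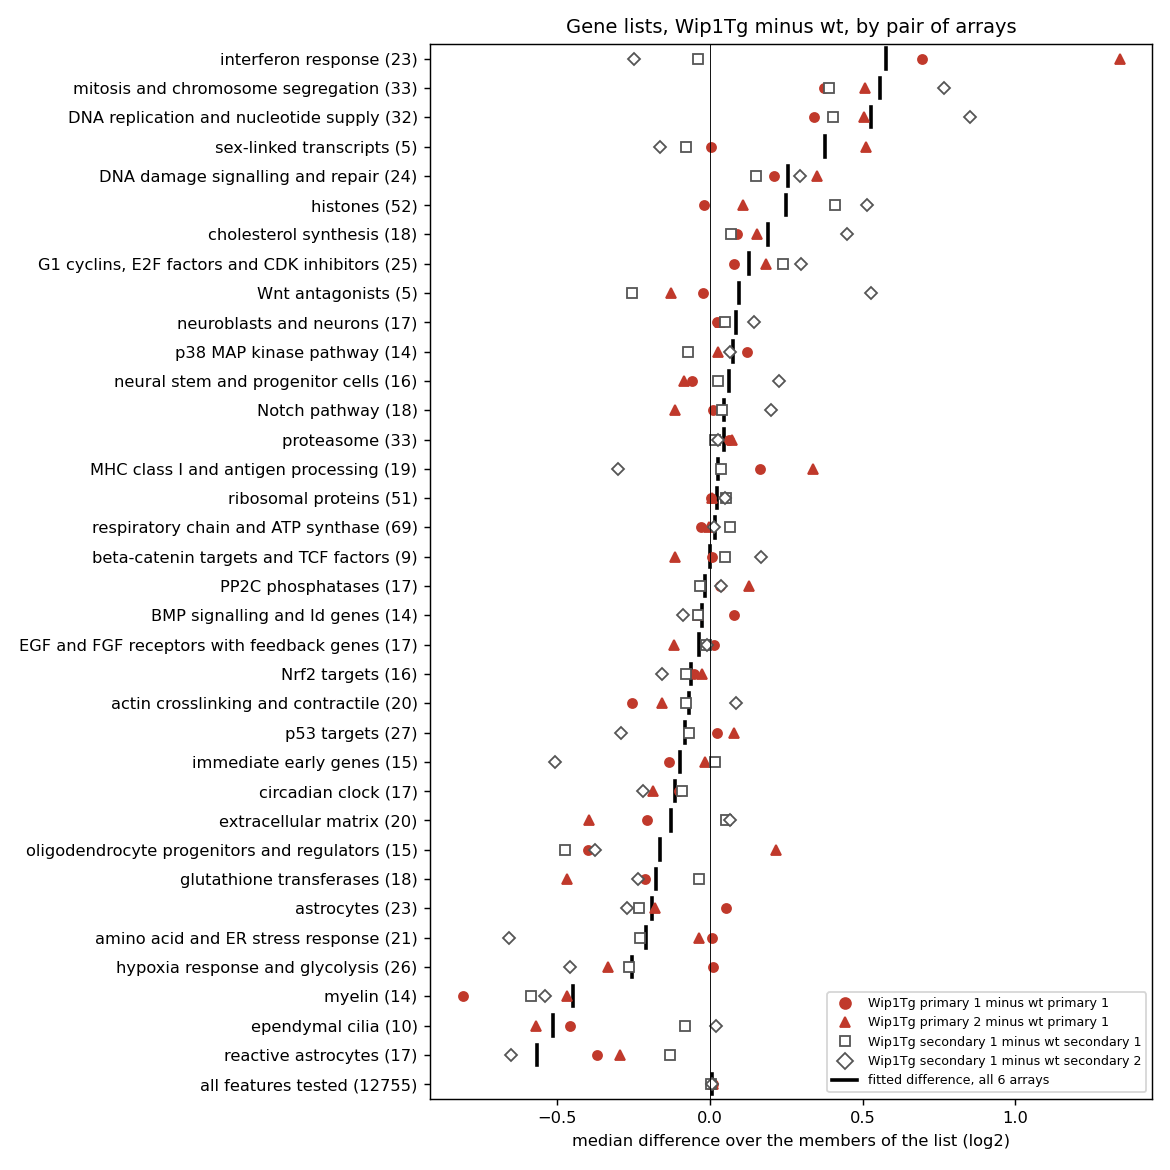
Median difference over the members of each gene list (log2), Wip1Tg minus wt, with the number of measured genes in parentheses and all features at the bottom. Points are the 4 pairs of arrays within a passage and the black bar is the median of the fitted differences. Replication and mitosis lie to the right and myelin and reactive astrocytes to the left in all 4 pairs, whereas the interferon response lies at 0.70 and 1.34 in the primary pairs and at -0.04 and -0.25 in the secondary pairs.

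Among the 39 gene lists, those of DNA replication and mitosis had the largest share of members that were higher in Wip1Tg at an unadjusted p under 0.05. In these bulk samples more cells of a type and more RNA per cell cannot be told apart. All 32 measured genes of DNA replication and nucleotide supply had a positive difference, against 51.7% of all features. Of them 20 had an unadjusted p under 0.05 (against 4.93% of all features), none was lower at that level, and none passed the adjusted threshold. Their median was 0.53, with 0.46 within primary and 0.64 within secondary spheres, and 25 of 32 lay above all wt arrays in both passages (against 16.2%). The median was 0.36 with the authors' values and 0.26 with median scaling. Chaf1a, a subunit of the factor that loads histones onto new DNA, read 8.24 and 8.65 on the Wip1Tg primary arrays, against 7.80 on the wt primary array, and 8.11 on the Wip1Tg secondary array, against 7.34 and 7.01 on the wt secondary arrays. Its Wip1Tg arrays lay above wt in both passages, and the difference was 0.79 ± 0.173 (unadjusted p 0.00303). Dut, which keeps uracil out of DNA, read 7.08 and 7.35 in Wip1Tg primary spheres, against 6.70 in wt, and 7.61 in Wip1Tg secondary spheres, against 6.87 and 6.71 in wt. It too was apart in both passages, by 0.67 ± 0.144. Rfc5, of the clamp loader, and Gins2, of the replicative helicase complex, differed by 0.57 ± 0.129 and 0.53 ± 0.121.

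The wt secondary arrays also differed from each other in these genes. wt secondary 1 exceeded wt secondary 2 in 31 of 32 replication genes, by a median of 0.385, and the Wip1Tg secondary array exceeded wt secondary 1 by 0.403 and wt secondary 2 by 0.851. Between the Wip1Tg primary arrays the median was 0.25 lower on Wip1Tg primary 1, and these exceeded the wt primary array by 0.34 and 0.504. The count of 20 became 14 without Wip1Tg primary 2 and 8 without Wip1Tg secondary 1.

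Mitosis genes gave a like picture. Of 33 measured, 32 were higher (against 51.7% of all features), 23 of them at an unadjusted p under 0.05 (against 4.93%) and 28 above all wt arrays in both passages (against 16.2%). The median was 0.56, or 0.38 with the authors' values and 0.27 with median scaling. The exception was Kif23, a kinesin of the midbody needed for cytokinesis, which differed by -0.49 at an unadjusted p under 0.05, while its 3 kept probes gave -0.49 to 0.74. Knstrn, a protein of kinetochores and spindle poles, read 8.67 and 8.92 on the Wip1Tg primary arrays, against 7.64 on the wt primary array, and 7.53 on the Wip1Tg secondary array, against 6.95 and 6.86 on the wt secondary arrays. Its Wip1Tg arrays were apart from wt in both passages, by 0.89 ± 0.163 (unadjusted p 0.00116). Top2a, the topoisomerase that untangles DNA before division, read 10.10 and 10.18 in Wip1Tg primary spheres, against 9.51 in wt, and 9.54 in Wip1Tg secondary spheres, against 8.70 and 7.96 in wt. The groups were apart in both passages, although its second probe gave 0.31 where the brightest gave 0.92. Ndc80, of the kinetochore, differed by 0.90, and outside the list Kif15, a spindle kinesin, and Aspm, a spindle pole protein, differed by 1.03 and 0.92. Without Wip1Tg secondary 1 Ndc80 became 0.57, Kif15 0.59 and Aspm 0.35, and without wt secondary 2 Kif15 was 0.64. Cdca8, of the chromosomal passenger complex, differed by 0.62 ± 0.152, Cdc20, an activator of the anaphase-promoting complex, by 0.62 ± 0.16 and Anln, of the contractile ring, by 0.48 ± 0.124. wt secondary 1 exceeded wt secondary 2 in 31 of 33, by a median of 0.40, and the count of 23 became 20 without Wip1Tg primary 2 and 6 without Wip1Tg secondary 1.

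The promoters of mitosis genes are known for CCAAT boxes, bound by NF-Y, and for the cell cycle homology element TTTGAA, and those of replication genes for E2F sites, searched here as TTTNNCGC. Each motif was searched on both strands in the 250 bases before the start of each gene (RefSeq, GRCm38.p6). The 3 stretches below belong to mitosis genes named above, all encoded on the minus strand, and are shown 5′ to 3′ on that strand with CCAAT and TTTGAA matches of either strand in capitals. The stretch of Top2a is chr11:99024190-99024439 with 6 CCAAT and 2 TTTGAA matches, that of Cdc20 is chr4:118437344-118437593 with 2 and 1, and that of Cdca8 is chr4:124936918-124937167 with 3 and 0.
Top2a: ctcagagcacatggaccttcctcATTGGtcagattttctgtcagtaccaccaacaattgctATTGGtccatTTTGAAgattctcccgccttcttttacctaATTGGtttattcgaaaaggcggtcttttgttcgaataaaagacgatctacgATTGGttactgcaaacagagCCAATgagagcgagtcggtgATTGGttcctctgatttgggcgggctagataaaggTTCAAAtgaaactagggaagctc
Cdc20: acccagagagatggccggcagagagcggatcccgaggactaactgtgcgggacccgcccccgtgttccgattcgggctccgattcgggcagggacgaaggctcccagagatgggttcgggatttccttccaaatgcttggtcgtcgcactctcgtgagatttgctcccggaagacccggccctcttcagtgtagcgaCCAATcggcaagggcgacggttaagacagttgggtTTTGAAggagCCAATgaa
Cdca8: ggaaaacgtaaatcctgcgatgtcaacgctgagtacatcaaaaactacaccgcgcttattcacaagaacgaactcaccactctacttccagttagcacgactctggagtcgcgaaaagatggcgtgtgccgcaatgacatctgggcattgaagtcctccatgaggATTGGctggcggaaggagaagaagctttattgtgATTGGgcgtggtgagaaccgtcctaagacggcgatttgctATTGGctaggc
No matches overlapped in these stretches, and none held TTTNNCGC. CCAAT was present in 67.9% of 28 promoters of the mitosis genes and 55.9% of 34 promoters of the replication genes, against 33.8% of all 32851 promoters. TTTGAA was present in 32.1% and 11.8%, against 16%, and TTTNNCGC in 7.14% and 23.5%, against 4.28%. Promoters were found for 27 of 33 mitosis genes and 27 of 32 replication genes. A match describes these letters only and is not evidence of binding.

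Around these lists the differences were smaller. Of 25 G1 cyclins, E2F factors and CDK inhibitors, 17 were higher (against 51.7% of all features), 6 at an unadjusted p under 0.05 (against 4.93%). They were led by the transcription factor E2f2 (0.74 ± 0.207) and by Ccne2, a cyclin of S phase entry (0.73 ± 0.228). The median of 0.13 became -0.02 with median scaling. Of 24 genes of DNA damage signalling and repair, 19 were higher (against 51.7% of all features), 8 at an unadjusted p under 0.05 (against 4.93%). Their median was 0.25, or 0.15 with the authors' values and 0.05 with median scaling. The count of 8 became 4 without Wip1Tg primary 2 and 3 without Wip1Tg secondary 1. Rad54l, a motor of homologous recombination, read 8.57 and 8.78 on the Wip1Tg primary arrays, against 8.004 on the wt primary array, and 7.97 on the Wip1Tg secondary array, against 7.42 and 6.93 on the wt secondary arrays. It was apart from wt in both passages, by 0.73 ± 0.168, and Blm, a helicase, Timeless, of the replication fork, and H2ax, the histone marked at breaks, differed by 0.49, 0.46 and 0.50.

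Of 52 measured histone genes, which package DNA and are made in S phase, 42 were higher (against 51.7% of all features). At an unadjusted p under 0.05, 14 were higher (against 4.93%) and 1 was lower. The median of 0.25 was 0.03 in primary and 0.45 in secondary spheres, a difference between passages that was not tested, and it was 0.15 with the authors' values and 0.08 with median scaling. The count became 11 without Wip1Tg primary 2, and without Wip1Tg secondary 1 no histone gene was higher at that level (0 of 52). H2ac13 read 14.47 and 14.52 in Wip1Tg primary spheres, against 14.04 in wt, and 14.10 in Wip1Tg secondary spheres, against 13.62 and 13.29 in wt. H2ac21, H2ac22 and H4c17 differed by 0.64, 0.65 and 0.75. Histone genes are near-identical copies, so a probe may read several of them and these names are uncertain.

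**Figure D3:**
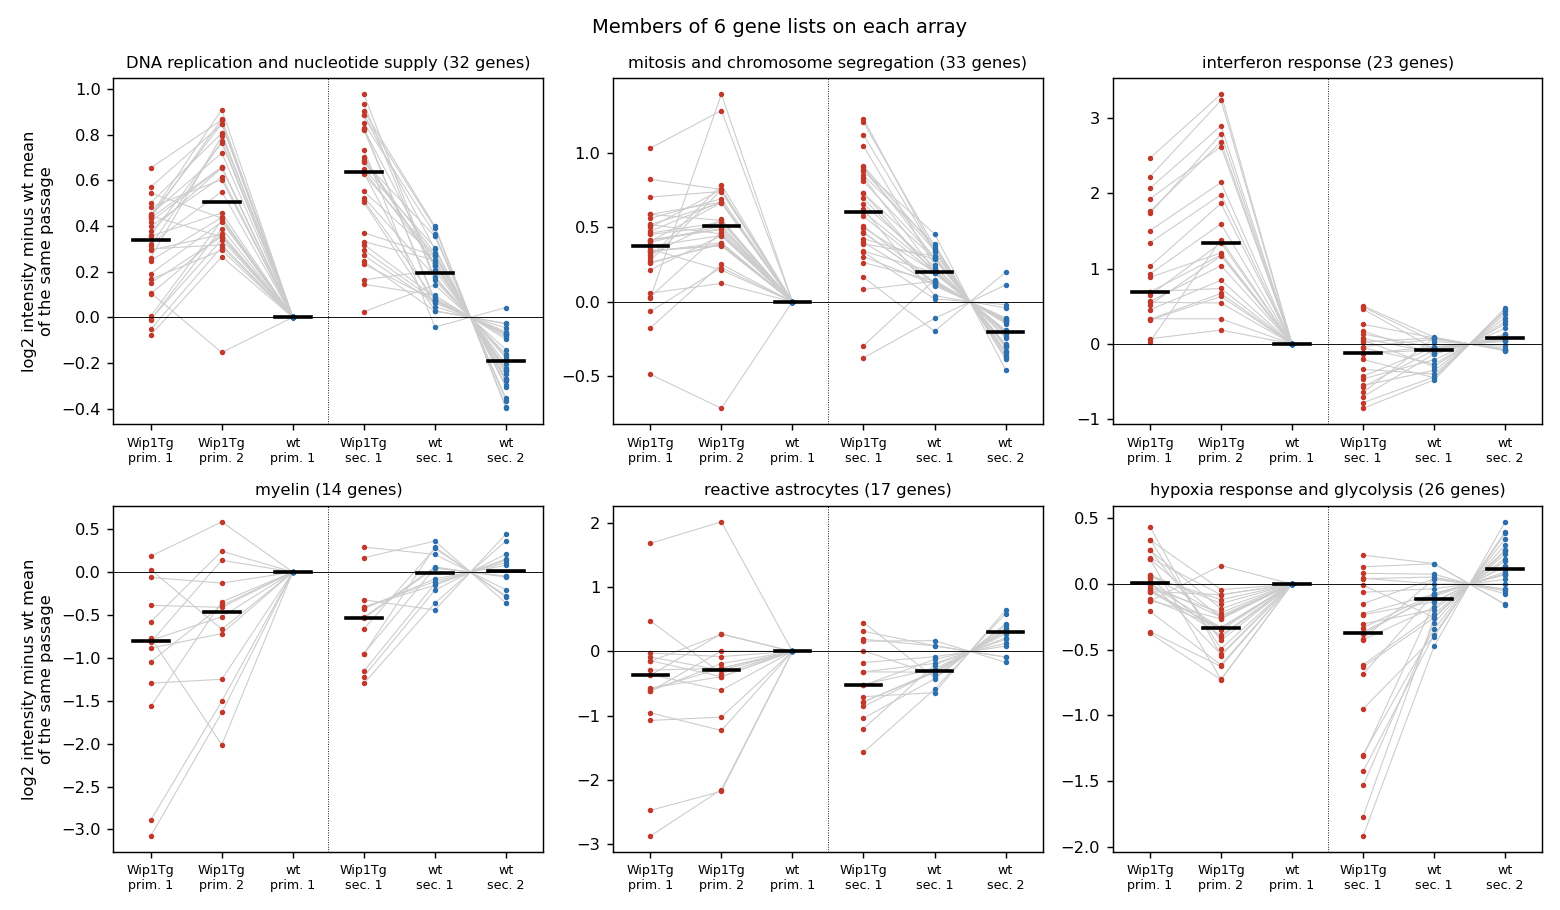
Each member of 6 gene lists on each array, as log2 intensity minus the wt mean of the same passage, with Wip1Tg arrays in red, wt arrays in blue and black bars for the median. Replication and mitosis medians stand above 0 on all 3 Wip1Tg arrays (0.34 to 0.64 for replication), and the wt secondary arrays stand apart from each other in both. Interferon genes are high on the Wip1Tg primary arrays, and myelin medians are below 0 on all 3 Wip1Tg arrays.

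Myelin genes, which mature oligodendrocytes express, were lower. All 14 measured had a negative difference, against 48.3% of all features, 7 had an unadjusted p under 0.05 (against 5.15%), and 7 lay below all wt arrays in both passages (against 14.1%). The median was -0.45, with -0.69 within primary and -0.53 within secondary spheres, and it was -0.24 with the authors' values. Mag, a glycoprotein of the inner myelin membrane, read 5.65 and 7.03 on the Wip1Tg primary arrays, against 8.54 on the wt primary array, and 6.73 on the Wip1Tg secondary array, against 7.74 and 8.16 on the wt secondary arrays. All its Wip1Tg arrays lay below wt, and the Wip1Tg primary arrays were themselves more than 1 log2 unit apart. The difference was -1.71 ± 0.41 (unadjusted p 0.00483). Mbp, myelin basic protein, read 7.26 and 8.70 in Wip1Tg primary spheres, against 10.34 in wt, and 8.99 in Wip1Tg secondary spheres, against 10.01 and 10.29 in wt. Its Wip1Tg arrays again lay below the wt arrays of their passage, and its 3 kept probes gave -1.76 to 0.04. The difference of -1.76 became -1.16 without wt primary 1. Mal, a myelin proteolipid, and Plekhb1, a membrane-associated protein, differed by -0.60 ± 0.157 and -0.41 ± 0.115, and Cldn11, a tight junction protein of myelin, by -0.95. The count of 7 became 8 without Wip1Tg primary 2 and 3 without wt primary 1. Mog, Ermn, Gjb1, Myrf and Aspa, also on the list, were above background on no array.

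Of 15 oligodendrocyte progenitor genes and regulators 11 were lower (against 48.3% of all features), 2 at an unadjusted p under 0.05 (against 5.15%). The 2 were C1ql1 (-0.44), a secreted synaptic ligand, and Nkx6-2 (-0.60), a homeobox factor of the lineage. C1ql1 was above background on no Wip1Tg array. It thus passed the filter through the wt arrays alone, which favours a lower difference. Nkx6-2 was above background on no secondary array. The list's median was -0.16, with -0.12 in primary and -0.50 in secondary spheres, and the primary arrays were split, with -0.40 on Wip1Tg primary 1 and 0.22 on Wip1Tg primary 2. Without wt primary 1 it was -0.50. Pdgfra, the growth factor receptor of these progenitors, differed by -0.39 ± 0.175, with 9.18 and 9.52 in Wip1Tg primary spheres, against 9.68 in wt, and 8.34 in Wip1Tg secondary spheres, against 9.01 and 8.56 in wt.

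Of 23 measured astrocyte genes 20 were lower (against 48.3% of all features), with a median of -0.19 that ran from -0.27 to -0.11 when each array was left out. The median was 0.05 on Wip1Tg primary 1 and -0.18 on Wip1Tg primary 2, each minus wt primary 1. On Wip1Tg secondary 1 it was -0.23 and -0.27 minus wt secondary 1 and 2. The list's spread between replicates, 0.357, was larger than its median. An unadjusted p under 0.05 was reached by 2 of 23, near the 5.15% of all features: Acsl6 (-0.35 ± 0.118), an acyl-CoA synthetase, and Glul (-0.48 ± 0.193), glutamine synthetase. Genes that reactive astrocytes raise had a median of -0.57 over 17. Of these 14 were lower (against 48.3% of all features), 5 at an unadjusted p under 0.05 (against 5.15%), and 3 were higher, by up to 0.67. Serpina3n, a secreted protease inhibitor, read 12.64 and 12.69 on the Wip1Tg primary arrays, against 13.72 on the wt primary array, and 11.26 on the Wip1Tg secondary array, against 11.81 and 12.43 on the wt secondary arrays. Its groups did not overlap in either passage, and the difference was -0.95 ± 0.187 (unadjusted p 0.00171). Gfap, the intermediate filament of astrocytes, read 13.13 and 12.89 in Wip1Tg primary spheres, against 13.49 in wt, and 11.27 in Wip1Tg secondary spheres, against 12.26 and 12.68 in wt. It was lower on each Wip1Tg array, by -0.84 ± 0.212, and Cp, the copper carrier ceruloplasmin, and Clcf1, a cytokine of the CNTF family, differed by -0.81 and -0.63. wt secondary 1 was itself below wt secondary 2 by a median of 0.62 in these genes, and the median was -0.27 without wt secondary 2 and -0.31 without Wip1Tg secondary 1. With the authors' values it was -0.28 and with median scaling -0.37. The count of 5 ran from 4 to 7 when each array was left out and was 5 without Wip1Tg primary 2.

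Cilia genes of ependymal cells had a median of -0.51 over 10. Of these 6 were lower (against 48.3% of all features), 4 at an unadjusted p under 0.05 (against 5.15%), and 4 were higher, by up to 0.29. The lower genes included Dnaic1, a chain of ciliary dynein (-0.65 ± 0.12), Tppp3, a tubulin-binding protein (-1.13 ± 0.342), Tekt1, a filament of cilia (-0.78), and Dnali1, a dynein light chain (-0.60). The median of all 10 came to -0.46 in primary and -0.03 in secondary spheres, and without wt primary 1 it was -0.03. With the authors' values the list's median was -0.16 and with median scaling -0.20. Foxj1, the factor that drives ciliogenesis, was level in primary spheres with 6.15 and 6.16 in Wip1Tg and 6.15 in wt. It was not above background in Wip1Tg secondary spheres (4.85), against 5.92 and 5.88 in wt.

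Interferon-stimulated genes, the antiviral programme that type I interferon turns on, differed in primary spheres above all. Of 23 measured, 22 had a positive difference (against 51.7% of all features), 5 of them at an unadjusted p under 0.05 (against 4.93%). The median was 0.58, or 0.31 with the authors' values and 0.22 with median scaling. Within primary spheres the median was 0.99 and all 23 were higher in Wip1Tg, whereas within secondary spheres it was -0.12 and 9 were higher. The difference between passages was not tested for the list. Usp18, a protease that removes ISG15 and restrains interferon signalling, read 10.08 and 10.93 on the Wip1Tg primary arrays, against 7.62 on the wt primary array, and 5.38 on the Wip1Tg secondary array, against 4.92 and 4.85 on the wt secondary arrays, where it was not above background. The primary arrays carried nearly all of its difference of 1.69 ± 0.521. Rsad2, an antiviral enzyme named after its values were seen, read 10.49 and 11.50 in Wip1Tg primary spheres, against 8.27 in wt, and 6.999 in Wip1Tg secondary spheres, against 6.65 and 7.25 in wt. Its groups overlapped in secondary spheres only. Stat2, of the transcription complex that interferon activates, Gbp3, a guanylate-binding protein, and Ifit2, an RNA-binding effector, differed by 0.58, 0.70 and 0.76 and lay above wt in both passages.

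The size of the interferon difference varied between passages and between arrays. Its median was 0.70 on Wip1Tg primary 1 and 1.34 on Wip1Tg primary 2 above the one wt primary array. Leaving out wt primary 1 or Wip1Tg secondary 1 gives the difference within the other passage again. Without wt primary 1 the fitted median was -0.12 and no member was higher at an unadjusted p under 0.05 (0 of 23), and without Wip1Tg secondary 1 it was 0.99 with 15. Without Wip1Tg primary 2 the count of 5 became 4, and without wt secondary 2 it became 8. Of 18 probed microglia and immune genes, 2 and 5 were above background on Wip1Tg primary 1 and 2, and 3 on wt primary 1. On Wip1Tg secondary 1, wt secondary 1 and wt secondary 2 the counts were 3, 3 and 5. The 13 above background on no array included Ptprc, Itgam, Cx3cr1 and Cd3e. Whether the content of immune cells differed between arrays was not tested. Of 19 genes of MHC class I and antigen processing 11 were higher, with a median of 0.37 within primary and -0.14 within secondary spheres. H2-K1, a class I heavy chain, differed by 0.43 ± 0.15, and Calr, a chaperone of class I assembly, by -0.42 ± 0.169. MHC class I genes are close copies, so their names are uncertain as well.

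**Figure D4:**
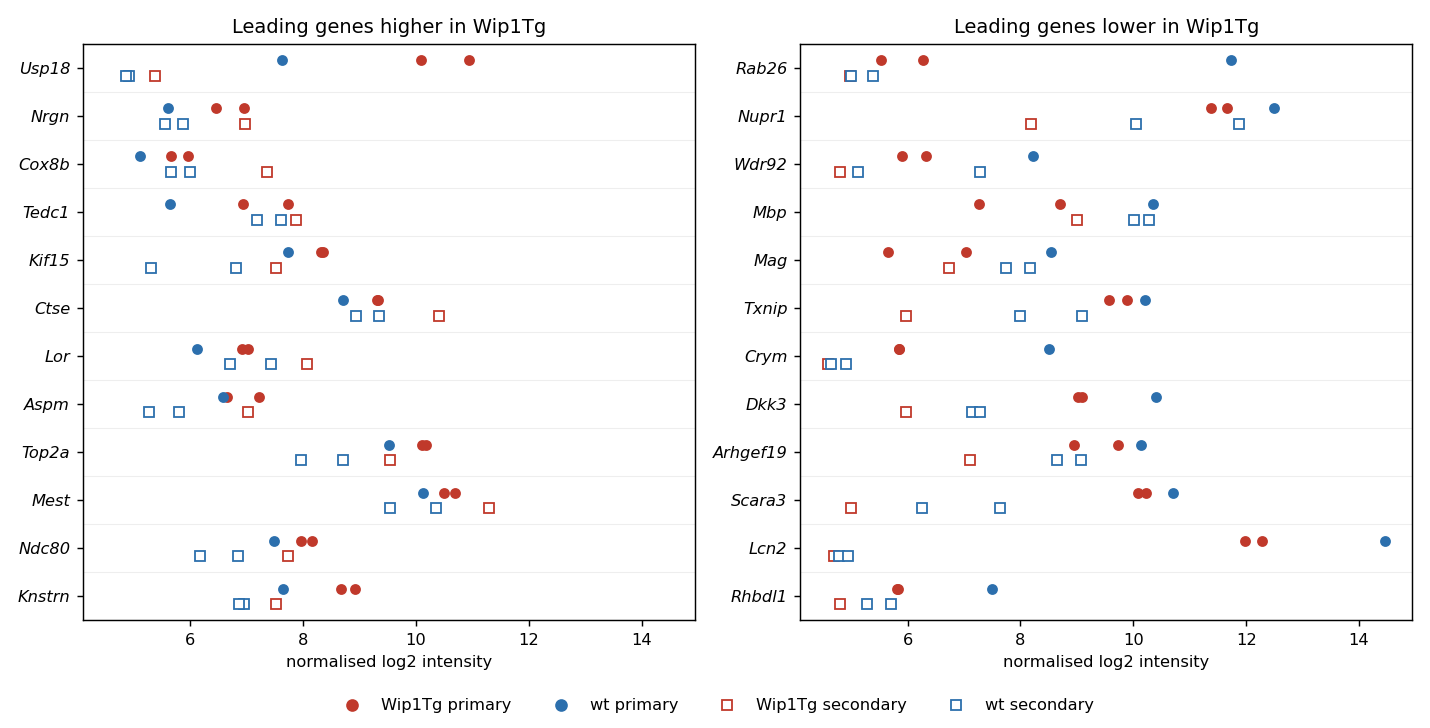
Normalised log2 intensity of the 12 named genes with the largest positive difference (left panel) and the 12 with the largest negative difference (right panel) on each array. Filled circles are primary and open squares secondary spheres, Wip1Tg in red and wt in blue. Red and blue are separated within each passage by the rule that chose these genes, and Rab26 is high only on the wt primary array.

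The largest single-gene differences were taken from features with an unadjusted p under 0.05 whose Wip1Tg arrays lay beyond all wt arrays in both passages, 624 above (4.89%) and 631 below (4.95%). The limma adjusted p of the 24 leading genes ran from 0.217 to 0.492. All 24 kept their sign with the authors' values and with median scaling, and the difference was smaller by over 1.5 times in 15 and 16 of them. Among the 12 higher genes that leads to Usp18, the 5 genes Knstrn, Top2a, Ndc80, Kif15 and Aspm described above, Nrgn, Cox8b, Tedc1, Ctse, Lor and Mest. Nrgn, which encodes the calmodulin-binding protein neurogranin of neurons, read 6.45 and 6.95 on the Wip1Tg primary arrays, against 5.599 on the wt primary array, and 6.97 on the Wip1Tg secondary array, against 5.87 and 5.54 on the wt secondary arrays. The difference was similar in both passages, 1.10 and 1.26, and 1.18 ± 0.181 overall (unadjusted p 0.000429), but 0.43 with the authors' values and 0.39 with median scaling. Cox8b, a subunit of cytochrome c oxidase best known from muscle, read 5.96 and 5.66 in Wip1Tg primary spheres, against 5.12 in wt, where it was not above background, and 7.36 in Wip1Tg secondary spheres, against 5.67 and 6.001 in wt. In primary spheres it was at least 1.48-fold higher, and its difference of 1.11 was 0.42 and 0.39 under those scalings and 0.72 without Wip1Tg secondary 1. Of the other 68 genes of the respiratory chain and ATP synthase, none had an unadjusted p under 0.05.

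Tedc1, a protein of centrioles, differed by 1.08 ± 0.336, with 1.68 in primary and 0.48 in secondary spheres, and 0.48 without wt primary 1. Ctse, the aspartic protease cathepsin E, read 9.32 and 9.31 on the Wip1Tg primary arrays, against 8.71 on the wt primary array, and 10.41 on the Wip1Tg secondary array, against 9.35 and 8.94 on the wt secondary arrays. Mest, an imprinted gene expressed from the paternal allele, read 10.50 and 10.69 in Wip1Tg primary spheres, against 10.12 in wt, and 11.29 in Wip1Tg secondary spheres, against 10.35 and 9.53 in wt. For both, the Wip1Tg secondary array was the highest of all 6 arrays, and without it the differences of 0.94 and 0.91 became 0.61 and 0.47. Lor, a protein of the cornified envelope of skin, differed by 0.92 ± 0.208.

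Among the 12 lower genes, Nupr1, a stress-induced chromatin protein, read 11.67 and 11.38 in Wip1Tg primary spheres, against 12.49 in wt, and 8.18 in Wip1Tg secondary spheres, against 10.04 and 11.88 in wt. The wt secondary arrays differed from each other by nearly as much as Wip1Tg secondary 1 differed from the closer of them. Its difference of -1.87 ± 0.578 was -2.78 without wt primary 1 and -0.97 without Wip1Tg secondary 1. Txnip, a glucose-responsive inhibitor of thioredoxin, read 9.89 and 9.56 on the Wip1Tg primary arrays, against 10.21 on the wt primary array, and 5.97 on the Wip1Tg secondary array, against 7.99 and 9.10 on the wt secondary arrays. It was likewise lower mainly in secondary spheres (-2.57, against -0.48 in primary spheres). Arhgef19, a guanine nucleotide exchange factor, differed by -1.27 ± 0.302, and Scara3, a scavenger receptor, by -1.26 ± 0.443, being at least 3.1-fold lower in secondary spheres, where it was not above background in Wip1Tg. Rhbdl1, a relative of rhomboid proteases, differed by -1.18 ± 0.242. Without Wip1Tg secondary 1 Arhgef19 was -0.79, Scara3 -0.56 and Txnip -0.48, and without wt primary 1 Rhbdl1 was -0.66. Wdr92, a WD repeat protein of dynein assembly, differed by -1.76 ± 0.555 by 1 probe and by 0.05 by another. Neither Rhbdl1 nor the first Wdr92 probe was above background in Wip1Tg secondary spheres, and each was above it on only 1 wt secondary array. In secondary spheres they were at least 1.13-fold and 1.85-fold lower.

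Rab26, a small GTPase of vesicle traffic, stood out by its level on 1 array. It read 6.27 and 5.54 on the Wip1Tg primary arrays, against 11.74 on the wt primary array, and 4.98 on the Wip1Tg secondary array, against 5.004 and 5.40 on the wt secondary arrays. The other 5 arrays lay far below wt primary 1, and the fitted difference of -3.03 ± 1.12 was -0.21 without it. Lcn2, a secreted lipocalin of reactive astrocytes, read 11.98 and 12.28 in Wip1Tg primary spheres, against 14.45 in wt, and Crym, a thyroid hormone-binding protein, 5.86 and 5.85 in Wip1Tg primary spheres, against 8.50 in wt. On the secondary arrays both were below background, so their differences of -1.25 and -1.42 rest on wt primary 1, and they were -0.17 and -0.18 without it.

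The lists of the hypoxia response and glycolysis and of the amino acid and ER stress response had more members lower than higher. Of 26 genes of the hypoxia response and glycolysis 22 were lower (against 48.3% of all features), 4 at an unadjusted p under 0.05 (against 5.15%). Their median was -0.25. P4ha1, a collagen prolyl hydroxylase, read 9.24 and 8.98 on the Wip1Tg primary arrays, against 9.61 on the wt primary array, and 7.62 on the Wip1Tg secondary array, against 8.57 and 9.26 on the wt secondary arrays. It was lower in both passages, by -0.90 ± 0.259, and its paralog P4ha2 and the glycolytic enzymes Hk1 and Pfkl differed by -1.07, -0.44 and -0.78. The list's median was 0.01 on Wip1Tg primary 1 and -0.33 on Wip1Tg primary 2, and its count ran from 1 without Wip1Tg secondary 1 to 11 without Wip1Tg primary 1, with 2 without Wip1Tg primary 2 and 9 without wt primary 1. Of 21 genes of the amino acid and ER stress response 17 were lower (against 48.3% of all features), with medians near 0 within primary and of -0.46 within secondary spheres. Besides Nupr1 they included Chac1, which degrades glutathione (-0.82 ± 0.334), while Hspa5, the main chaperone of the ER, differed by 0.38 ± 0.155.

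Glutathione transferases, which couple glutathione to reactive compounds, were lower in 15 of 18 (against 48.3% of all features), 5 at an unadjusted p under 0.05 (against 5.15%). Gstm1 read 12.47 and 12.37 in Wip1Tg primary spheres, against 12.96 in wt, and 13.36 in Wip1Tg secondary spheres, against 13.78 and 14.10 in wt. It was below wt on each Wip1Tg array, by -0.56 ± 0.134, and Gstm7, Gsta3 and Gstm6 differed by -0.62, -0.86 and -0.61. The count of 5 became 4 without Wip1Tg primary 2 and 3 without Wip1Tg secondary 1. The Gstm genes lie side by side and are close copies, so their signals may not be separate. Of 16 Nrf2 targets 1 was higher and 1 lower at an unadjusted p under 0.05, against 4.93% and 5.15% of all features. They were Txn1, which encodes thioredoxin (0.48 ± 0.133), and Nfe2l2, Nrf2 itself (-0.54 ± 0.201). Cholesterol synthesis genes were higher in 17 of 18 (against 51.7% of all features), by a median of 0.19, or 0.05 with median scaling. Only Lss, which closes the sterol ring, had an unadjusted p under 0.05 (0.51 ± 0.209), and wt secondary 1 exceeded wt secondary 2 in all 18.

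Of 17 circadian clock genes 13 were lower (against 48.3% of all features) and 4 had an unadjusted p under 0.05 (against 5.15%). Per3, a period gene, read 5.56 and 5.75 on the Wip1Tg primary arrays, against 6.35 on the wt primary array, and 5.75 on the Wip1Tg secondary array, against 6.64 and 6.44 on the wt secondary arrays. It was apart from wt in both passages, by -0.74 ± 0.127 (unadjusted p 0.000786). Ciart and Dbp, which are transcribed in phase with it, and Rora, a nuclear receptor of the clock, differed by -0.47, -0.61 and -0.37. The hour of harvest is not stated in the labels.

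A few genes of the cytoskeleton and matrix had large differences within lists whose medians were small. Flnc, a filamin that crosslinks actin, read 8.77 and 8.47 in Wip1Tg primary spheres, against 9.78 in wt, and 5.65 in Wip1Tg secondary spheres, against 6.43 and 6.88 in wt. Csrp1, a LIM protein of actin bundles, read 10.20 and 10.06 in Wip1Tg primary spheres, against 11.43 in wt, and 5.39 in Wip1Tg secondary spheres, against 6.06 and 6.39 in wt. Both lay below wt in both passages, by -1.08 ± 0.172 and -1.06 ± 0.165, as did Inf2, a formin (-1.17 ± 0.2) that was not above background in Wip1Tg secondary spheres. Pdlim7, a PDZ and LIM protein that was above background on no secondary array, differed by -0.69 ± 0.178. Over all 20 actin genes the median was -0.07. In the extracellular matrix list 6 of 20 were lower at an unadjusted p under 0.05 (against 5.15% of all features). Of that list, Loxl1, a crosslinker of elastin, Mmp2, a gelatinase, Sparc, a collagen-binding glycoprotein, and Col6a1, a chain of collagen VI, differed by -0.87, -0.88, -0.69 and -0.77. Col6a1 was above background in primary spheres only, and a second Sparc probe gave 0.11.

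Stem cell, neuronal and signalling lists held few differences. Of 16 genes of neural stem and progenitor cells 8 were higher and 8 lower, and Hes5, a Notch effector, alone had an unadjusted p under 0.05. Hes5 read 7.92 and 7.98 on the Wip1Tg primary arrays, against 6.85 on the wt primary array, and 9.18 on the Wip1Tg secondary array, against 9.16 and 8.57 on the wt secondary arrays. It was apart mainly in primary spheres (1.10, against 0.31 in secondary), and so was Nrarp, a feedback inhibitor of Notch, with 1.12 and 0.14. The other 16 of 18 Notch pathway genes did not reach that level. Among 17 genes of neuroblasts and neurons, which include Nrgn, Sox11, a factor of newborn neurons, differed by 0.40 ± 0.155 and Rbfox3, the source of the NeuN antigen, by -0.67 ± 0.224. Of 14 BMP and Id genes, Bmpr1b, a BMP receptor, differed by 0.33 ± 0.125, and of 17 EGF and FGF receptor and feedback genes none had an unadjusted p under 0.05. Of 15 immediate early genes Myc and Egr3 were higher (0.43 and 0.60) and Nr4a2 lower (-0.34) at that level, against 4.93% and 5.15% of all features. A second Egr3 probe gave -0.14. Ribosomal proteins (51), the proteasome (33) and the respiratory chain (69) had medians of 0.02, 0.05 and 0.02, which became -0.10, -0.08 and -0.10 with median scaling.

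Whether the genotype difference itself changed between passages was tested as the interaction, secondary minus primary, with 2 residual degrees of freedom. No feature passed an adjusted p of 0.05 in limma (0 of 12755, 0%), and 1196 (9.38%) had an unadjusted p under 0.05, 562 positive (4.41%) and 634 negative (4.97%). With median scaling this split was 894 to 124. Rab26, Lcn2 and Crym had positive interactions of 5.61, 2.15 and 2.46, and in each wt primary 1 was the high array. Zfp385b, a zinc finger protein, read 6.52 and 6.45 in Wip1Tg primary spheres, against 6.97 in wt, and 6.75 in Wip1Tg secondary spheres, against 5.47 and 5.56 in wt. It was lower in primary and higher in secondary spheres, an interaction of 1.72 that it shared in size with Pamr1, a secreted serine protease homologue (1.72).

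On the negative side, H2-T10, a nonclassical class I gene, read 7.94 and 8.28 on the Wip1Tg primary arrays, against 5.59 on the wt primary array, and 8.56 on the Wip1Tg secondary array, against 8.59 and 8.74 on the wt secondary arrays. wt primary 1 was the one low array, and the gene's 3 kept probes differed from each other, with genotype differences from -0.46 to 1.21. Gramd1a, a carrier of cholesterol between membranes, read 6.44 and 6.59 in Wip1Tg primary spheres, against 5.97 in wt, and 5.19 in Wip1Tg secondary spheres, below background, against 6.74 and 6.59 in wt. Here Wip1Tg secondary 1 was the low array, with an interaction of -2.02. Zfp24, a zinc finger repressor, Paip1, a partner of the poly(A)-binding protein, and Eef2, elongation factor 2, had interactions of -1.69, -1.39 and -1.51, with limma adjusted p of 0.489 in each.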

How the data were processed

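RNA of 6 neurosphere samples was hybridised to 1 Illumina MouseWG-6 beadchip. Per the file headers, the deposited scanner table lists for every probe the linear intensity and the detection p-value on each array. The authors' value table of the same arrays holds intensities whose sorted columns are nearly equal, as after quantile normalisation, and served as an alternative. The scanner software is not given in the sources used here.

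Intensities were background-corrected and quantile-normalised with neqc of limma 3.58.1 in R 4.3.3 (offset 16, log2). A probe was kept if its detection p was below 0.05 on 3 or more of 6 arrays (18274 probes). Gene names were those of the platform annotation, where 34885 of 45281 probes had 1 symbol, 18 several and 10378 none. For 3849 genes with several kept probes the brightest on average was used, and in 1509 of them the probes had both signs. Genotype and passage were additive terms, and a 4-group model gave the within-passage differences and the interaction, which takes the spread of a single array to be that of the rest. Tests were limma's moderated tests with Benjamini-Hochberg adjustment over all 12755 features at 0.05, and the steps were tested on simulated data. A fold is given as "at least" where no array of the dimmer group was above background, measured from the probe's own level or from the dimmest detected probe of the array, whichever was brighter.

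The gene lists (39, with 1070 entries, of which 1024 had a probe) and the samples compared were chosen with earlier results of these data known. Always named were Ppm1d, Dkk3, Mdm2, Cdkn1a, Axin2 and sex-linked transcripts. Trp53, which encodes p53, was planned as well but was not among the features that passed the filter. The 12 named genes of each direction with the largest difference were taken among those with an unadjusted p under 0.05 and Wip1Tg arrays beyond all wt arrays in both passages, leaving out provisional names, with up to 4 members of each list by smallest p and 5 genes of each interaction sign. Alternatives were the variance prior, no moderation, the authors' quantile-normalised values, median scaling without background correction, other probe filters, the mean of a gene's probes, no passage term and leaving out each array. The list counts without each array were added after seeing the data. The arrays' number limits the precision.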

Additional observations from a re-analysis of the deposited data

Results flagged for a closer look

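For 6 lists both Wip1Tg arrays of primary spheres had a median on the opposite side of wt from that of the Wip1Tg secondary array against either wt secondary array. The difference between passages was not tested for any list, and each rests on the lone wt primary and the lone Wip1Tg secondary array. Given as the within-secondary minus the within-primary median, it was -1.12 for the interferon response (-0.12 and 0.99), -0.378 for sex-linked transcripts (-0.12 and 0.26), -0.219 for p53 targets (-0.22 and near 0) and 0.3 for the extracellular matrix (near 0 and -0.30). It was 0.228 for neural stem and progenitor genes (0.12 and -0.11) and 0.0688 for the respiratory chain and ATP synthase (0.04 and -0.03). The sex-linked list moves with the Xist signal of Wip1Tg primary 2, given above. Whether any of the others move with it was not tested.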

How the results depend on the processing

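The count of 0 features past the adjusted threshold for genotype became 1 (Dkk3, -1.30) with a trended and robust variance prior, and was 0 under the other 13 alternatives. The 1286 features at an unadjusted p under 0.05 became 2373 over all probes and 465 without the passage term, and lay between 952 and 1763 when each array was left out. Within primary spheres the 0 features past the adjusted threshold became 20 with the trended prior and 17 with the authors' quantile-normalised values. For the interaction the 0 became 9 and 6 under the same settings, and 1 with median scaling and 1 over all probes, and its 1196 unadjusted features became 2185 over all probes. Over 280 recomputed values of 28 named genes, 275 kept their sign and side of the threshold, 1 (Dkk3) passed it, and 4 changed sign. These were Axin2 at 0.00038 with the authors' values, 0.0923 without Wip1Tg primary 2 and 0.158 without wt primary 1 (-0.158 to 0.158 over the arrays left out), and Cdkn1a at 0.117 without Wip1Tg secondary 1 (-0.932 to 0.117). The 24 leading genes were chosen for arrays apart in both passages, which favours a kept sign. All 28 genes started at a limma adjusted p of 0.217 or more, so the count of 275 was largely set by the choice of genes. Usp18 was 0.47 without wt primary 1 and 2.89 without Wip1Tg secondary 1, close to its differences within secondary and within primary spheres. Of 351 recomputed list medians 312 moved by less than the spread between replicates and 39 moved by more. In some lists that spread was larger than the median itself, as in reactive astrocytes (0.612, against -0.565). A median could then change sign and still count as unmoved, so the count of 312 depends on this rule. The cause of these changes was not tested. No paired analysis was possible because the genotypes share fewer than 2 replicate numbers within a passage. Signal limits the secondary values of Lcn2 and Crym, below background on all secondary arrays, and of Usp18, below it on the wt ones. It also limits those of Scara3, Rhbdl1, Wdr92 and Rab26, below background on Wip1Tg secondary 1. Kif15 and Aspm were above background on only 1 wt secondary array.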

Other observations

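Named genes at an unadjusted p under 0.05 were spread over the genome. They made up 6.3% (chromosome 18) to 12.5% (chromosome 14) of the named genes of an autosome and 11.7% of those of the X chromosome, on which the median difference was 0.075. On chromosome 7, 20 of 774 were higher and 53 lower, together 9.43%. On chromosome 11, which carries Ppm1d, 34 of 839 were higher and 53 lower, together 10.4%. Over all features the share was 10.1%, with 4.93% higher and 5.15% lower.

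A few members of marker lists had values not described above. Otx2, a homeobox factor and the one choroid plexus gene that passed the filter, read 5.72 and 6.30 in Wip1Tg primary spheres, against 6.36 in wt, and 4.63 in Wip1Tg secondary spheres, against 5.81 and 5.26 in wt. Nes, the intermediate filament nestin of progenitors, read 11.07 and 11.12 in Wip1Tg primary spheres, against 11.36 in wt, and 11.70 in Wip1Tg secondary spheres, against 10.53 and 10.18 in wt. It was below wt in primary and above wt in secondary spheres, and the fitted difference was 0.54 ± 0.341. Flt1, a VEGF receptor, read 8.06 and 7.60 in Wip1Tg primary spheres, against 9.20 in wt, and 6.61 in Wip1Tg secondary spheres, against 6.39 and 6.61 in wt. These genes were named after their values were seen.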
